A study of Mus musculus with 29 samples.

Results

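Nxph1, Dapl1 and Pla2g4f were the 3 genes with the largest rises in basal bladder cells 4 days after Pparg activation, among genes that met a selection rule. The rule took genes that were called different, whose groups did not overlap and whose mutant mean reached 100 normalized counts, and it passed over predicted genes. The members are thus 3 of 35199 genes in the 4-day table, and their values in that table are a description of how they were chosen. Their levels in the other tables were not used by the rule.

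The series holds 29 RNA-seq samples of mouse bladder in 8 groups. At 4 days, 4 control libraries labelled wild type were set against 5 libraries of K5VP16;Pparg+/- mice, neither group treated with carcinogen. Control (K5;mTmG) and mutant (K5VP16;Pparg;mTmG) animals both carried the tamoxifen-inducible Krt5CreERT2 driver and a Gfp reporter. Both were given tamoxifen, and Gfp-positive cells were sorted for sequencing. In the mutants, Cre removed a stop cassette at the Rosa26 locus in cells that use the Krt5 promoter, which released a fusion of the VP16 activator to Pparg under a CAG promoter. The allele was made in hybrid embryonic stem cells, the mice were young adults at induction, and strain was not tested here. A further 8 libraries were made from wild-type animals, 4 of them untreated and 4 given the bladder carcinogen BBN for 1 month. Tumors were laser-captured after 5 months of BBN, with tamoxifen given after the first month, and their titles say 4 months. There are 3 basal tumors of mice labelled wild type. The paper describes its tumor controls as VP16;Pparg fl/fl mice in some figures and as K5;mTmG mice in others, and the labels do not say which these were. K5VP16;Pparg+/- mice gave 3 luminal tumors and, from lesions of mixed type, 3 luminal domains (titled Top) and 3 basal-like domains (titled Bottom). Nothing states which libraries came from separate animals, so each p-value measures only the spread between these libraries.

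Pparg is a nuclear receptor that pairs with a retinoid X receptor, binds response elements built from repeated half-sites, and switches on genes of lipid uptake and storage in response to fatty acid ligands. In the urothelium, the stratified lining of the bladder, it is known for promoting the differentiation of luminal cells, and Fabp4, a fatty acid binding protein, is a standard target. Nxph1 encodes neurexophilin 1, a secreted glycoprotein that binds alpha-neurexins on neurons. Dapl1, a small relative of the death-associated protein Dap, is known from epithelial cells that are starting to differentiate. Pla2g4f encodes a cytosolic phospholipase A2 of group IV, an enzyme family that releases fatty acids, arachidonic acid among them, from membrane phospholipids.

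The 3 genes lie at separate loci. By the GENCODE M21 annotation of GRCm38, Nxph1 spans chr6:8948431-9249032 on the plus strand, a 301 kb gene with at most 3 exons in a coding transcript. Dapl1 spans chr2:59484653-59505020 on the plus strand and has 4 exons. Pla2g4f spans chr2:120299957-120314165 on the minus strand and has 20 exons. Dapl1 and Pla2g4f overlap no other annotated gene, and Nxph1 overlaps 1 processed pseudogene, Gm35736, on its own strand.

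The 250 bases before the RefSeq start sites (build GRCm38.p6) are shown for Dapl1 and Pla2g4f, because both genes went from near 0 to clearly detected in every mutant. Capitals mark the TATAAA motif in Dapl1 and both copies of a direct repeat in Pla2g4f. The Dapl1 window is chr2:59484403-59484652, plus strand, and the Pla2g4f window is chr2:120314166-120314415, minus strand.
Dapl1: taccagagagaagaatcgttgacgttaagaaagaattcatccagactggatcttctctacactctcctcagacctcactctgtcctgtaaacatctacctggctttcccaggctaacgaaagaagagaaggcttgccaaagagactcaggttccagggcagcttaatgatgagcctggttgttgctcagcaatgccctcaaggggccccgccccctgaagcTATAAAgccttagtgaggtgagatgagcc
Pla2g4f: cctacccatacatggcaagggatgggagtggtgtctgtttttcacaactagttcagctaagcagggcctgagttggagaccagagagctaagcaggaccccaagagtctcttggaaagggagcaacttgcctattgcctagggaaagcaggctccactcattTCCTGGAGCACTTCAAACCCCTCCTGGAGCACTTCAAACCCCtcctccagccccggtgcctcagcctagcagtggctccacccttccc
The window of Nxph1, chr6:8949769-8950018, overlaps an exon that GENCODE annotates for the gene, and it is not printed.

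All 3 members matched an entry in the RefSeq promoter table. TATAAA stands 29 bases before the Dapl1 start and is held, on either strand, by 12.4% of the 32851 windows in that table. The 21-base repeat of Pla2g4f begins 88 and 67 bases before the start, and 1.03% of all windows hold a direct repeat at least that long. The PPAR response element in its exact form, AGGTCA repeated with 1 base between the copies, was in 0.0335% of all windows and in none of the 3. The half-site AGGTCA alone, which that element contains, was in 14.0% of all windows and in none of the 3. TGANTCA, the AP-1 motif, was in 6.75%, and AACCGGTT, a grainyhead motif, in 0.116%, and neither was in a member's window. Both strands were searched. A missing match says only that these letters are not within these 250 bases. The Nxph1 window held 66.8% G and C, against 50% for Dapl1, 56% for Pla2g4f and a median of 52.4% over all windows.

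Values are normalized counts, which the authors computed for each table on its own, so levels are compared only within a table. The number of genes above 0 per library lay between 17116 and 21279, and reads per library are not known. In the 4-day table the row of Pparg itself was not higher in the mutants, at 7622 ± 1223 normalized counts (SD, n = 5) against 9705 ± 266 in controls (SD, n = 4). Its log2 fold change was -0.36 ± 0.12 (SE), with an adjusted p of 0.126 in limma, and whether transgene reads count toward that row is not given in the sources used here. Fabp4 lay between 207 and 467 in the controls and between 4969 and 30598 in the mutants, a log2 fold change of 4.64 ± 0.49 (SE, limma adjusted p = 0.00171). One further feature separates the libraries. The summed level of 4 Y-linked genes was 404 in control 1 and 338 to 395 in the mutants, but had a median of 9038 over the 4 controls, so Y-linked RNA moved with genotype in all but 1 control. Its part in the 4-day results was not tested, and values of control 1 are therefore given beside those of the other controls.

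Nxph1 was listed at 0 in all 4 controls, control 1 included, and was detected in all 5 mutants. Its normalized counts were 70.2, 12.3, 186, 165 and 93.9 in mutants 1 to 5, where numbers are names given in column order. The mean was 106 ± 70.9 (SD, n = 5). Mutant 2 was low and mutants 3 and 4 were high. On the scale of log2(normalized count + 1) the difference between group means was 6.28. No fold is given, since the controls are listed at 0.

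Dapl1 was at 2.90, 4.68, 0 and 0.957 normalized counts in controls 1 to 4. In mutants 1 to 5 it was at 499, 211, 86.2, 110 and 52.3. Every mutant was above every control, and the mean of the mutants was 192 ± 181 (SD, n = 5) against 2.13 ± 2.08 (SD, n = 4). The log2 difference was 5.78, and against control 1 alone it was 5.17. Mutant 1 was the highest, mutant 2 next and mutant 5 the lowest.

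Pla2g4f was at 7.33 normalized counts in control 1 and listed at 0 in the other 3 controls. In mutants 1 to 5 it was at 417, 136, 59.1, 32.3 and 49.4. The groups did not overlap here either, with means of 139 ± 161 (SD, n = 5) and 1.83 ± 3.67 (SD, n = 4). The log2 difference was 5.72. Because the sole control with signal was also the one low in Y-linked genes, the log2 difference fell to 3.43 when only libraries low in Y-linked genes were kept, a choice made after seeing the data.

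Mutants above every control were selected for, so the lack of overlap in the 3 genes is no finding; in the whole table, 4.67% of the 16413 genes tested had every mutant above every control, and 2.85% were called different. Nxph1, Dapl1 and Pla2g4f ranked 2, 4 and 5 among all tested genes by log2 difference, because the rule passed over the genes ranked 1 and 3. The next gene under the rule was Ifi202b, an interferon-inducible gene of the p200 family whose level is known to vary between inbred mouse strains. Ifi202b was at 0.917 to 12.4 in controls and 67.5 to 573 in mutants, a log2 difference of 5.62 against the 5.72 of Pla2g4f just inside the limit.

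**Figure D1:**
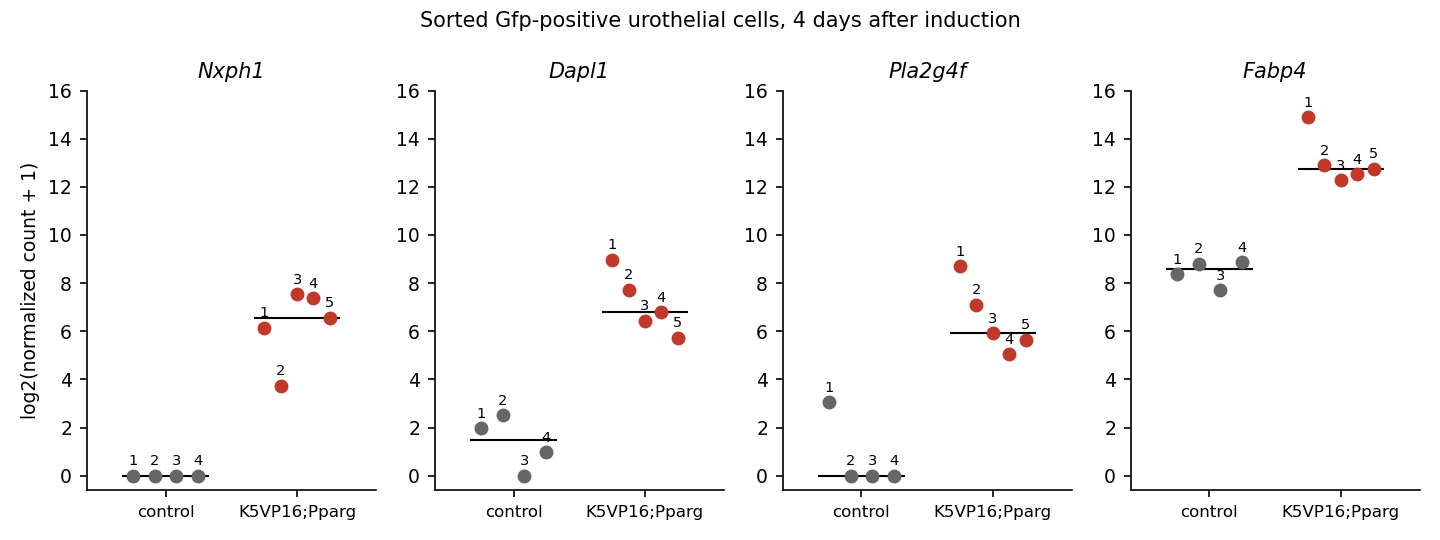
Level of Nxph1, Dapl1, Pla2g4f and, for comparison, Fabp4 in each 4-day library, as log2(normalized count + 1) on a common scale. Each point is 1 library numbered in column order, and the black line is the group median. For the 3 selected genes the controls sit at or near 0 and all 5 mutants lie above them, with mutant 1 highest for Dapl1, Pla2g4f and Fabp4 but not for Nxph1.

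The 3 genes did not order the mutants alike. Dapl1 and Pla2g4f were both highest in mutant 1 and second highest in mutant 2, as was Fabp4. Krt14, a keratin of basal cells, ran in the same order as Dapl1 in all 5 mutants, at 11162, 3883, 682, 1658 and 616 normalized counts. The basal markers Krt15 and Trp63 did not share that order. Krt15 was highest in mutant 5, at 152875, and Trp63 was lowest in mutant 1, at 12606. In the controls, where Dapl1 was at or near 0, Krt14 was at 388 to 747. Nxph1 was instead highest in mutant 3 and lowest in mutant 2, which is also where Col1a1, a collagen chain made by fibroblasts, was highest (16285) and lowest (2206). Orders over 5 libraries are a description only.

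Markers of stromal cells were measured in the same libraries. All 7 fibroblast markers had positive fold changes, with a median log2 of 2.04 against 0.00455 over all genes tested. Of them 1, Lum, passed the test, against 2.85% of all genes, and a single call is no result about the list. The summed fibroblast markers ranged from 11668 to 84728 in the controls and from 30691 to 217844 in the mutants. For smooth muscle, 6 of 6 markers had positive fold changes (median 1.75) and none passed at an adjusted p of 0.05, and the sums ranged from 174 to 1042 in controls and 410 to 2719 in mutants. No marker of either list was at 0 in either group. Of 12 neural and glial markers, 7 were tested and none passed, with a median of -0.01, and Sox10 was at 0 in every 4-day library. Leukocyte markers had a median of -0.14 with none of 11 passing. The part of stromal RNA in the rise of the members was not tested. In bulk libraries of this kind, more cells that express a gene and more RNA per cell cannot be told apart.

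None of the tested relatives of the members passed the test at 4 days. Among the neurexophilins, Nxph2 was listed at 0 in all 9 libraries. Mean Nxph3 was 27.1 in the control libraries and 24.4 in the mutant libraries, for a log2 fold change of -0.11 ± 0.85 (SE, adjusted p = 0.957), and Nxph4 was at or under 10.7 in every library and was not tested. The receptors and partners of the same synaptic system, neurexins, neuroligins, cerebellins and the like, gave 12 tested genes of 16, of which none passed in either direction (median 0.09). Dap, the nearest relative of Dapl1, was abundant in both groups, at 10908 in controls and 12411 in mutants, and its log2 fold change was 0.18 ± 0.11 (SE, adjusted p = 0.383).

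The other group IV enzymes did not pass either. Pla2g4a, the widely expressed arachidonate-releasing member, was at 4828 in controls and 4008 in mutants (log2 fold change -0.27 ± 0.09 SE, adjusted p = 0.129). Pla2g4b, Pla2g4c and Pla2g4e had log2 fold changes of -0.61, 0.92 and -0.06, each with an adjusted p of at least 0.386. Pla2g4d was listed at 0 in all 9 libraries. Moderate changes could go unseen at this precision, since the 95% interval of Pla2g4c ran from -0.33 to 2.18. Among 10 other phospholipases A2 tested, 1 passed, against 2.85% of all genes, and a single call is no result about the list. It was Pla2g7, a secreted enzyme that breaks down platelet-activating factor, which fell by 1.12 on the log2 scale (limma adjusted p = 0.0393). Of 21 genes of eicosanoid synthesis, the enzymes that turn released arachidonic acid into prostaglandins and leukotrienes, none passed, and the median log2 fold change was -0.01.

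Genes next to the members on the chromosome were measured as well, taking the nearest 2 protein-coding genes on each side. None of the neighbours passed the test. For Nxph1 they were Glcci1, Ica1, Ndufa4 and Phf14, with log2 fold changes from -0.51 to 0.43. For Dapl1 they were Ccdc148, Pkp4, Tanc1 and Wdsub1, from -0.30 to 0.26. Pla2g4f has Pla2g4d and Pla2g4e on its lower-coordinate side, 10.8 and 54.6 kb away, and Vps39 and Tmem87a on the other, 2.30 and 41.1 kb away. Vps39, whose end lies nearest the Pla2g4f start, had a log2 fold change of -0.04 ± 0.10 (SE), with a 95% interval from -0.27 to 0.18.

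**Figure D2:**
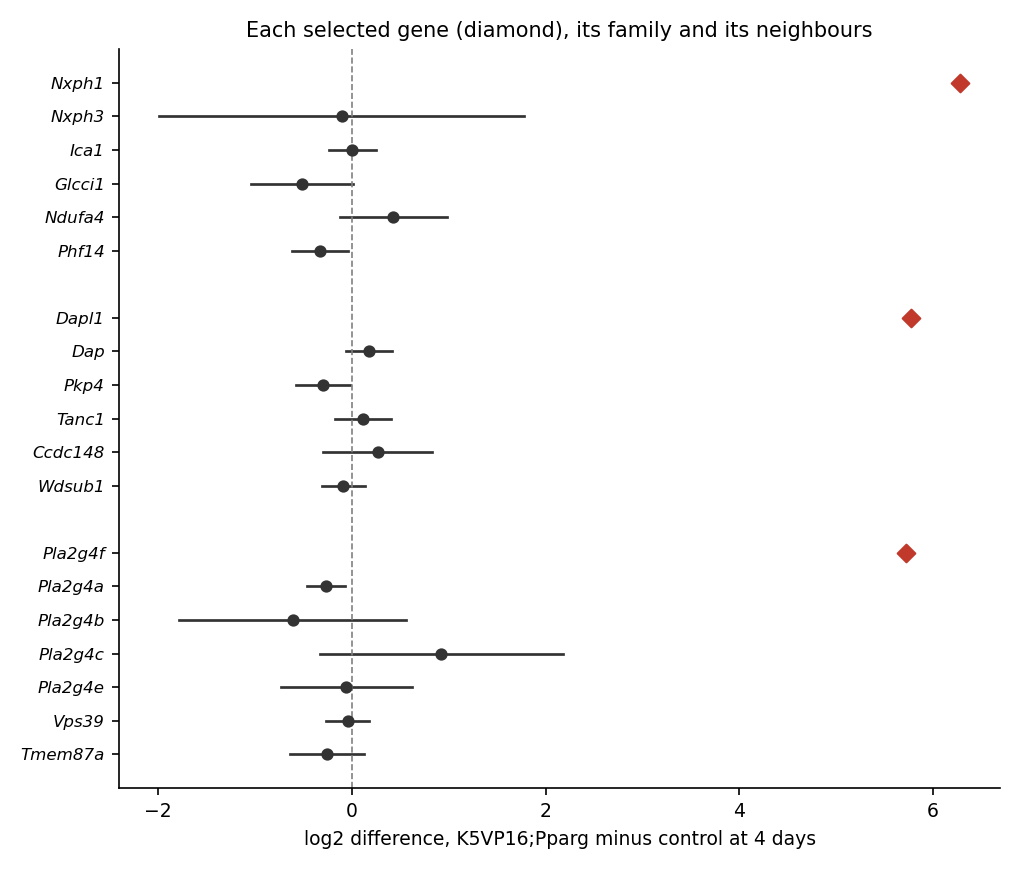
Difference between K5VP16;Pparg and control libraries at 4 days, on the log2(normalized count + 1) scale, for each selected gene (red diamond, no interval because it was chosen on this contrast) and for the tested members of its family and its nearest genes (black points with 95% confidence intervals from limma). The selected genes lie near 6 and the family members and neighbours lie between -0.61 and 0.92.

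Some known PPAR target genes were higher in the same libraries. Against the 2.85% of all genes called, 7 of 21 tested rose and 0 fell (median log2 fold change 0.75), among them Fabp4, Fabp1, Fabp5 and Angptl4, with Fabp1 at 3.51, Fabp5 at 1.90 and Angptl4, a secreted inhibitor of lipoprotein lipase, at 1.83. Stratified squamous differentiation genes, a list near the known setting of Dapl1, gave 1 rise among 12 tested, Tgm1 (1.69, adjusted p = 0.0284). Luminal markers gave 1 rise among 14, Krt20 (1.83, adjusted p = 0.0444). Basal markers gave 1 rise, Cd44 (0.76), and 1 fall, Col17a1 (-1.34), among 10. With lists this short, a single call is not a result about its list.

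Across the 9 libraries of the 4-day table and the 8 of the tumor table, each centred on its own mean, the genes whose pattern was most like that of each member were ranked by Pearson r over 17 libraries among 14248 genes. These libraries include those that chose the members and share a genotype contrast, so r is descriptive. For Pla2g4f the nearest were Slc27a4 (r = 0.951), Atp6v0c (0.945), Ctsd (0.941), Septin5 (0.927) and Elovl4 (0.926). Slc27a4 is a fatty acid transporter, Elovl4 elongates very long fatty acids, and Ctsd and Atp6v0c belong to the lysosome. For Dapl1 they were Gapdh (0.882), Cstb (0.875), Ifi202b (0.840), Racgap1 (0.834) and Ccnb2 (0.833), of which Gapdh is a glycolytic enzyme and Racgap1 and Ccnb2 act in cell division. For Nxph1 they were Ifi202b (0.915), Trim30d (0.853), Dapl1 (0.797), Sipa1l2 (0.795) and Ifit3 (0.785). Since Nxph1 was listed at 0 in all 8 libraries of the tumor table, it varied only in the 4-day libraries. The tumor values of the other genes still enter r.

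The untreated and BBN-treated wild-type libraries share a table of 8 columns, which the authors compared as 2 sets of 4. Which set drank BBN is not given in the labels used here, so the sets are called A and B, and no test was made. Their Y-linked sums, 6598 to 8153, did not split them. Dapl1 was at 4.36, 1.11, 1.61 and 43.9 normalized counts in set A. In set B it was at 743, 514, 779 and 179. Every library of set B lay above every library of set A.

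Pla2g4f was present in all 8 libraries of wild-type mice. It was at 363, 138, 253 and 295 normalized counts in set A and at 424, 1037, 793 and 1076 in set B. Nxph1 was at 1.13, 2.15, 17.3 and 24.3 in set A and at 0, 59.2, 61.04 and 148 in set B. Dapl1 and Pla2g4f did not overlap between the sets, whereas Nxph1 did, because 1 library of set B was listed at 0. Of the 15905 genes with enough signal here, 23.3% had all of set B above all of set A, so such separation was common.

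The sets differed widely in cell markers. Krt14 was at 120 to 389 in set A and 18899 to 45034 in set B, and Krt6a, a keratin of activated and squamous epithelium, at 2.47 to 16.6 and 12274 to 16993. Upk3a, a uroplakin of the superficial layer, was at 71541 to 113305 in set A and 9909 to 31291 in set B. The pan-leukocyte gene Ptprc was at 67.1 to 196 and at 540 to 1185. The paper reports that short BBN treatment expanded Krt14-positive cells, raised Krt6a, brought in leukocytes and lowered uroplakin genes. Krt14, Krt6a, Ptprc and Upk3a differed in those directions in set B against set A, without overlap. The labels still tie neither set to BBN, and the sets were not named from these values. Fabp4 ran the other way from Dapl1 and Pla2g4f, at 13131 to 26351 in set A and 1301 to 5038 in set B, and Pparg was also lower in set B (2837 to 4793 against 5993 to 7352). Dapl1 and Pla2g4f were therefore both high in libraries where Fabp4 was low, the reverse of their joint rise at 4 days. The share of all genes that were lower in set B without overlap was not counted. How far cell composition accounts for these values was not tested.

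**Figure D3:**
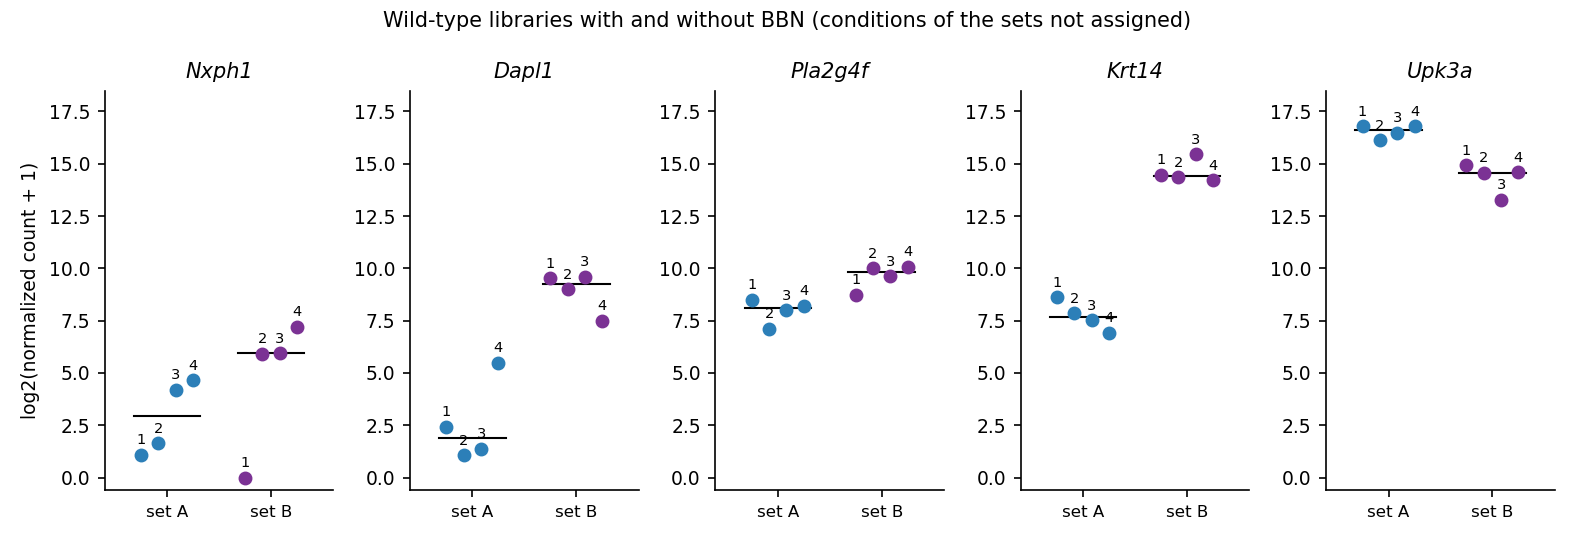
Level of Nxph1, Dapl1, Pla2g4f, Krt14 and Upk3a in the 8 libraries of wild-type mice, as log2(normalized count + 1). Points are libraries numbered in column order within the 2 sets that the authors compared, and black lines are medians. Dapl1 and Krt14 are higher in every library of set B than in any of set A, Upk3a is lower there, and Pla2g4f is present throughout, from 138 to 1076 normalized counts.

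The tumor libraries were not used to choose the members and allow a test. Nxph1 was listed at 0 in all 3 basal tumors, all 3 luminal tumors and all 3 luminal domains. In the basal-like domains it was at 0, 2.73 and 0. It fell under the filter of 10 normalized counts and was not tested, so the gene that went from 0 to detected at 4 days was listed at 0 in tumors of the same genotype, apart from 1 basal-like domain. The 4-day mutants were sorted cells without BBN and low in Y-linked RNA. The tumors were laser-captured after BBN and high in Y-linked RNA, so stage and these differences cannot be told apart. Depth in reads is unknown, so no upper limit can be set. No neurexophilin passed the filter there, although basal tumor 3 held 158 normalized counts of Nxph2 and 272 of Nxph4.

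Dapl1 was abundant in every tumor. It was at 12161, 3690 and 19866 normalized counts in the 3 basal tumors and at 7198, 1280 and 7265 in the luminal tumors. The 2 luminal domains of that table were at 3229 and 1814. Luminal tumors were the lower group on average, at 5248 ± 3436 (SD, n = 3) against 11906 ± 8091 (SD, n = 3), but the groups overlapped. The log2 fold change of luminal over basal tumors was -1.24 ± 0.78 (SE), with a 95% interval from -2.99 to 0.50 and an adjusted p of 0.433 in limma. It moved to -0.41 without luminal tumor 2, to -0.72 without basal tumor 3 and to -1.94 without basal tumor 2. In that comparison 2.20% of 15357 genes were called, and the median of all genes was -0.11.

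In the separate table of luminal domains and basal tumors, which reuses the same 3 basal libraries and 2 of the domains, Dapl1 was at 12734, 3788 and 20568 in basal tumors. It was at 3431, 1952 and 6298 in the luminal domains. Only basal tumor 2 fell within the range of the domains. The log2 fold change was -1.52 ± 0.66 (SE), with an interval from -3.04 to -0.00104 and an adjusted p of 0.243, and 2.53% of 14921 genes were called in this comparison. It was -1.00 without basal tumor 3. Neither comparison therefore called Dapl1, and since they share libraries they are not independent of each other.

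Within mixed lesions Dapl1 was at 3376, 1945 and 6271 in the luminal domains and at 5174, 3142 and 5620 in the basal-like domains. The log2 fold change of basal-like over luminal domains was 0.38 ± 0.44 (SE, interval -0.63 to 1.397, limma adjusted p = 0.967). Its sign could change when 1 library was left out. This comparison called 0 of 14874 genes (0%) in limma, with 757 at an unadjusted p under 0.05 and 20 called when the trend was left out. The fit treats the domains as unpaired, because no label matches the domains of 1 lesion, and a paired fit could call other genes.

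Dap was also measured in the tumors, and it was not compared with Dapl1 by a test. Dap was at 4747, 5146 and 4023 normalized counts in the basal tumors and at 11399, 12037 and 8867 in the luminal tumors (log2 fold change 1.21 ± 0.27 SE, adjusted p = 0.0571). In the luminal domains Dap was higher than in basal tumors by 1.34 ± 0.26 (SE) on the log2 scale, with an adjusted p of 0.0439. That call was lost without luminal domain 1 or luminal domain 2, since the comparison then called 0 genes in all, against 3 without luminal domain 3. The levels of Dap lay apart in every library of that comparison, at 14550, 12333 and 10078 in the domains and at 5001, 5316 and 4190 in the basal tumors. In the basal-like domains Dap was at 6360 to 7542, against 10284 to 14671 in the luminal domains. These ranges did not overlap, so Dap was lower in the basal-like domain however the domains are paired. The share of all genes without overlap was not counted for either domain comparison. The separation alone is thus no result about Dap. The difference did not pass in the unpaired fit (limma adjusted p = 0.757).

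Pla2g4f was uneven in the tumors. In the 3 basal tumors it was at 0, 1.01 and 391.7 normalized counts. In the luminal tumors it was at 142, 800 and 395, and in the luminal domains of that table at 2200 and 220. It was detected in every luminal library but in basal tumors mainly in library 3, which overlapped the luminal range. Luminal over basal tumors gave a log2 fold change of 5.27 ± 2.13 (SE), an interval from 0.50 to 10.0 and an adjusted p of 0.229, so the test was not passed. Leaving out 1 library moved the estimate between 3.67 (adjusted p = 0.483, without basal tumor 1) and 7.97 (adjusted p = 0.0547, without basal tumor 3).

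Basal tumor 3 differed from the other 2 in more than Pla2g4f. Fabp4 was at 1082 and 75.5 in basal tumors 1 and 2 but at 48303 in basal tumor 3. Pparg was low in all 3, at 126, 13.0 and 102, against 3579 to 8632 in the luminal tumors (log2 fold change 6.74 ± 0.80 SE, adjusted p = 0.0135). Dapl1 was highest there as well. Of 14 luminal markers, 6 were highest in that library, 6 in basal tumor 2 and 2 in basal tumor 1, with Upk1a at 665 against 36.2 and 8.28 but Upk3a at 26.1 against 648 and 4.56. Of 23 squamous differentiation genes, 19 were highest in basal tumor 3. They summed to 510662 normalized counts there, against 69186 and 91930 in the other basal tumors, with Krtdap at 155282 and Krt13 at 110229 (at most 26028 and 13604 in the others). The luminal tumors had squamous sums of 479153 to 1417710, with Sprr1a the largest part, at 275310, 1281440 and 259268 in luminal tumors 1 to 3. Sprr1a was at 50328 in basal tumor 3, whereas Krtdap was at 210 to 688 in the luminal tumors. Over the list, 10 of 21 tested genes were higher in luminal than in basal tumors, with a median log2 fold change of -0.02. The part of luminal or squamous cells in the values of Pla2g4f and Dapl1 was not tested.

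Against the luminal domains, Pla2g4f was at 0, 1.04 and 406 in basal tumors and at 2338, 236 and 80.9 in the 3 domains. The log2 fold change was 5.25 ± 2.37 (SE), with an interval from -0.22 to 10.7 and an adjusted p of 0.261, and it ran from 3.63 (adjusted p = 0.516) without basal tumor 1 to 7.97 (adjusted p = 0.0796) without basal tumor 3. Within mixed lesions Pla2g4f was at 2510, 257 and 87.9 in the luminal and 1211, 82.8 and 214 in the basal-like domains. The log2 fold change was -0.47 ± 1.38 (SE, interval -3.64 to 2.71, limma adjusted p = 0.986), and its sign could change when 1 library was left out. Libraries of 1 domain type thus spread widely, and the domain types overlapped. The highest libraries, luminal domain 1 and basal-like domain 1, were also highest of their type for Fabp4, at 336309 and 201809. Fibroblast marker sums were highest in the same libraries, at 32698 against 5520 and 6303 in the other luminal domains and at 104544 against 14142 and 17347 in the other basal-like domains. Of 14 luminal markers, 10 were highest in luminal domain 1, and 6 in basal-like domain 1 against 8 in basal-like domain 2. The summed squamous list was highest in luminal domain 1 (861847) but, among basal-like domains, lowest in library 1 (350083). Sprr1a made up most of these sums, at 666673 in luminal domain 1 and at 244057, 288482 and 354354 in the basal-like domains. The orders need not hold for the list without it. The part of these cell types was not tested. Whether the 2 came from 1 lesion is not given in the column names.

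**Figure D4:**
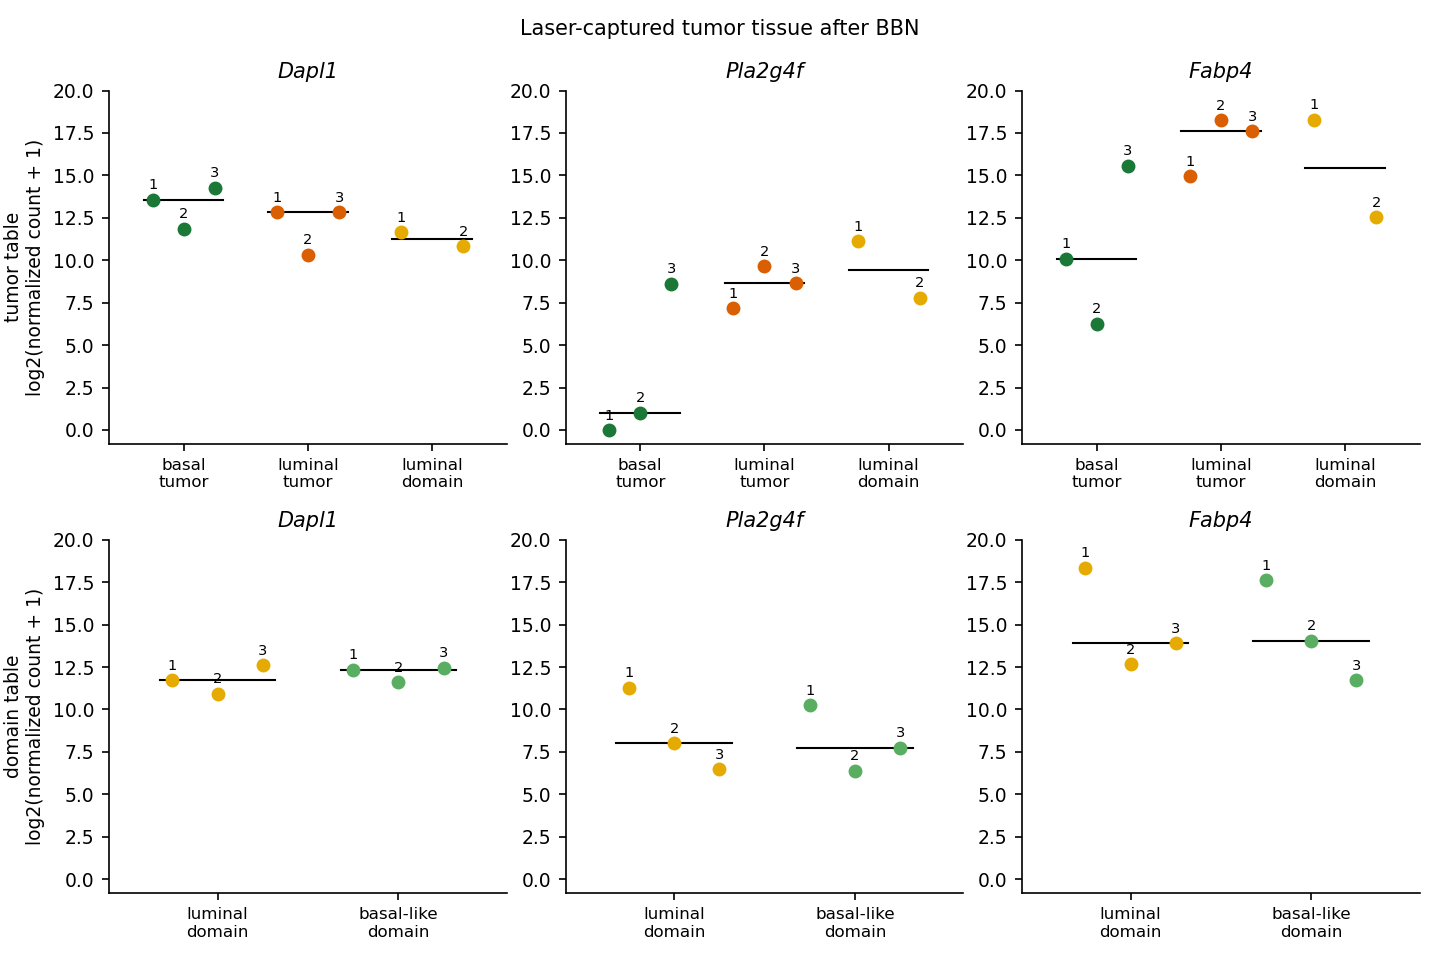
Level of Dapl1, Pla2g4f and Fabp4 in laser-captured tumor libraries, as log2(normalized count + 1). The upper row is the table of basal tumors, luminal tumors and 2 luminal domains, and the lower row the separately normalized table of luminal and basal-like domains. Points are libraries, numbered, and lines are medians. Pla2g4f is near 0 in basal tumors 1 and 2 and present in basal tumor 3 and all luminal libraries, and Dapl1 is present everywhere.

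Of the other group IV enzymes, Pla2g4a was present in every tumor library and did not pass, with log2 fold changes of 0.60 for luminal tumors and 0.69 for luminal domains against basal tumors (adjusted p = 0.510 and 0.411). Pla2g4e stood out in luminal domain 1, at 535 normalized counts against at most 43.6 in the other 7 libraries of the tumor table. That library also held the most Pla2g4f. Pla2g4d was at 39.5 in basal tumor 3 and listed at 0 in the other 7. In eicosanoid synthesis, Akr1b3 and Cbr1, enzymes that reduce carbonyl groups, rose in luminal tumors by 3.62 and 2.20 (limma adjusted p = 0.0192 and 0.0304). In luminal domains they rose by 3.88 and 2.55 (limma adjusted p = 0.0313 and 0.0282). These were 2 of 20 tested each time, with none called lower, against 2.20% and 2.53% of all genes called. The list's median log2 fold change was -0.69 for luminal tumors (5 of 20 positive) and 0.80 for luminal domains (11 of 20 positive). Every call against the luminal domains, those of Akr1b3, Cbr1 and Pparg included, was lost without luminal domain 1 or 2. The levels of Pparg stayed apart in every library, at 5405, 5001 and 4051 in the domains and at 135, 13.7 and 109 in the basal tumors. The share of all genes that separated in this way was not counted. Pla2g7 fell by 2.61 in luminal tumors (limma adjusted p = 0.0472), 1 of 8 other phospholipases A2 tested. A single call in so short a list is not a result about the list.

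Other cell types also separated basal from luminal tumors. Of all genes tested between them, 2.20% were called. Luminal markers were higher in luminal tumors in 8 of 14 tested genes and lower in 0 (median 3.99), with Upk3a at 9.99 on the log2 scale. Basal markers were lower in 3 of 11, Col17a1, Itgb4 and Itga6 (median -2.34). All 7 fibroblast markers had negative fold changes (median -5.26) and 3 of them passed, and their sum was 45144 to 67706 normalized counts in basal tumors and 212 to 17149 in luminal tumors. Of 6 smooth muscle markers, 3 passed, all lower (median -6.60). None of the leukocyte and endothelial markers passed, with medians of -2.66 and -3.65. Their sums did not overlap either, at 25985 to 134992 against 825 to 9829 for leukocytes and 1309 to 3257 against 374 to 1091 for endothelium. Lyz2 made up most of the leukocyte sums in basal tumors, at 127530, 19407 and 22585, and single markers differed. Ptprc lay apart, at 907 to 3740 in basal and 47.7 to 594 in luminal tumors. Cd3g overlapped, at 3.33 to 2278 and 101 to 416. Most of the calls above were lost without luminal tumor 1 or luminal tumor 2, since the comparison then called 3 genes in all each time. Leaving out some other library raised the count instead. How far the differences rest on those 2, or the loss on the smaller number of libraries, was not tested. Luminal marker sums did not overlap, at 38898 to 79966 in basal and 415768 to 1195960 in luminal tumors. Sums of basal markers did overlap. The part of these cells in the tumor values of the members was not tested. All libraries of the tumor tables were high in Y-linked genes, with sums of 4764 to 8667.

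**Figure D5:**
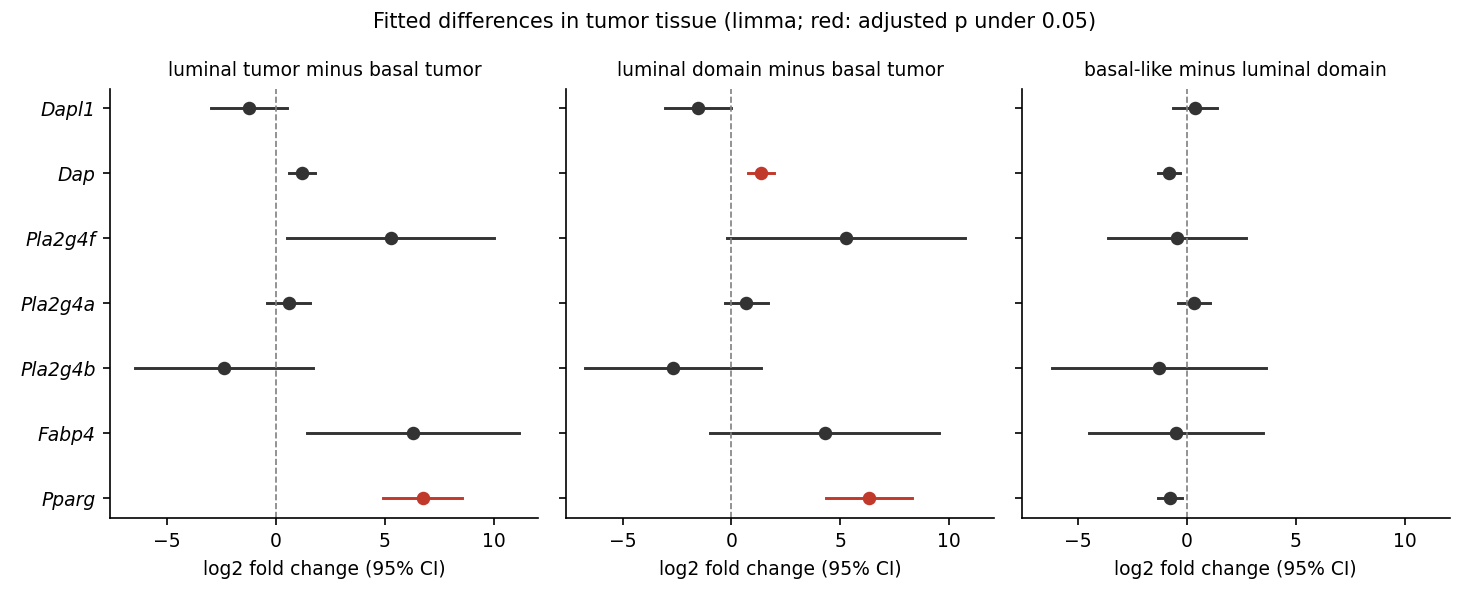
Log2 fold changes with 95% confidence intervals (limma) for Dapl1, Pla2g4f, their relatives Dap, Pla2g4a and Pla2g4b, and for Fabp4 and Pparg, in 3 tumor comparisons. Red marks an adjusted p under 0.05, reached by Pparg in both comparisons with basal tumors and by Dap for the luminal domain. The interval of Pla2g4f spans 0.50 to 10.0 for luminal tumors, and no interval in the comparison of domains belongs to a called gene.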

How the data were processed

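RNA was sequenced from sorted bladder cells at 4 days, from wild-type urothelium with or without BBN, and from laser-captured tumors. Per the methods and the submitters' processing notes, the authors quantified reads with kallisto 0.44.0 and normalized with DESeq2 1.18 (bcl2fastq 2.20 for base calls). The deposited values are normalized counts (treated as a signal, since whole reads could not be recovered from them), so the depth in reads is unknown and count models were not used. The deposited tables of fold changes and p-values hold the authors' own comparisons and were not used. All columns used were mapped (0 unmapped), and the labels tie no column to a replicate number in both domain groups.

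Values were compared as log2(normalized count + 1) with limma 3.58.1 in R 4.3.3 (lmFit, eBayes with a trend, two-sided), over genes with at least 10 normalized counts in as many libraries as the smaller group. P-values were adjusted by Benjamini-Hochberg over all genes tested, at 0.05, and every adjusted p in the text is from limma. Fold changes on this scale understate the change of low genes. The fit was tested on simulated data. The members and gene lists were chosen with earlier results of these data known. Named genes are the members, their families, the 2 nearest protein-coding genes on each side, the 5 genes most like each member by Pearson r, the next riser, called genes of the lists (neurexin ligands, phospholipases A2, eicosanoid synthesis, PPAR targets, cell markers), Pparg and Fabp4. Krt14, Krt6a, Col1a1, Ptprc, Upk1a, Upk3a, Krtdap and Krt13 are shown per library as markers, some chosen after their values were seen. Alternatives changed the pseudocount, filter, trend, weights, scaling, libraries and tables. Python 3.11.15 and matplotlib 3.10.9 were used for summaries and plots. 1 result among the PPAR targets is not reported here.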

Additional observations from a re-analysis of the deposited data

Results flagged for a closer look

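In the 4-day table, 3 values stood apart from the rest of their group by Dixon's test at 95%, among 25 groups tested, of which chance marks about 1 in 20. Pla2g4f was at 7.33 normalized counts in control 1, where the other 3 controls were listed at 0. With the others at 0, any value above 0 would stand apart in this way, and the Pla2g4f values of this table were also used to choose the gene, so these are descriptions. In the mutants, Pla2g4f was at 417 in mutant 1, with the next at 136. Fabp4 was at 30598 in the same mutant, with the next at 7617.

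The members were also measured in the wild-type libraries that entered no test, because the labels used here do not tie a set to BBN. The highest values there were 148 normalized counts for Nxph1, 779 for Dapl1 and 1076 for Pla2g4f, all in set B.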

How the results depend on the processing

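At 4 days the sign of the 3 log2 differences was fixed by the choice of genes whose groups do not overlap, so it says nothing of stability. With a pseudocount of 5 they were 4.07 for Nxph1, 4.40 for Dapl1 and 3.92 for Pla2g4f, which changes their order, and with only the libraries low in Y-linked genes, an alternative chosen after seeing the data, Pla2g4f was at 3.43. Leaving out 1 library gave 5.96 to 6.91 for Nxph1, 5.32 to 6.16 for Dapl1 and 5.16 to 6.48 for Pla2g4f. The 467 genes called became 269 without a trend, 1054 with array weights, 147 in the table of 3 against 3, 8 with libraries low in Y-linked genes (1 control, assumed to vary like the mutants) and 129 to 596 without 1 library. The split of 290 higher and 177 lower became 270 and 287 after quantile normalization and 300 and 228 after upper quartile scaling. For luminal against basal tumors, 338 calls became 52 without a filter, 142 without a trend, 142 with 6 libraries only, 513 with the 5 luminal libraries as 1 group and 3 to 813 without 1 library. For luminal domains against basal tumors, 377 became 144 without a filter, 107 without a trend and 0 to 467 without 1 library. Their split of 254 higher and 123 lower became 179 and 134 after upper quartile scaling. Between domains, 0 became 20 without a trend and stayed 0 without any 1 library. Neither Dapl1 nor Pla2g4f was called in a tumor comparison under any alternative. Without 1 library, Dapl1 ran from -1.94 to -0.41 and Pla2g4f from 3.67 to 7.97 for luminal tumors, and from -2.22 to -1.00 and 3.63 to 7.97 for luminal domains. Between domains both changed sign, Dapl1 from -0.031 to 0.81 and Pla2g4f from -1.53 to 0.88, including 0.40 without basal-like domain 2. The cause was not tested. No paired analysis was possible because the columns carry library identifiers that the labels do not tie to replicate numbers, so domains of 1 lesion could not be matched. Depth in reads is unknown, so values near 0 set no limit.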
